A study of Homo sapiens with 16 samples.

Results

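The genes described here are 10 transcription factor genes of melanocytes, of the neural crest from which melanocytes arise, and of the mesenchymal cell state: SOX10 (ENSG00000100146), SOX9 (ENSG00000125398), MITF (ENSG00000187098), PAX3 (ENSG00000135903), LEF1 (ENSG00000138795), TFAP2A (ENSG00000137203), TFAP2C (ENSG00000087510), ZEB1 (ENSG00000148516), ZEB2 (ENSG00000169554) and SNAI2 (ENSG00000019549). They were chosen by name as factors of these cell types, with earlier results of these data known, and are 10 of the 63677 Ensembl gene IDs in the count tables. All 10 passed the filter on low counts, which left 20280 genes to test. The RNA came from UACC62P, a parental human melanoma line, and from UACC62R, a line selected from it over 2 months with 2 uM of the mutant BRAF inhibitor vemurafenib and kept in that drug. The labels state the vemurafenib for the untreated libraries of UACC62R and do not say whether it was present in the treated ones. The line and exposure to vemurafenib thus cannot be told apart in comparisons of the lines. A change of vemurafenib and the treatment cannot be told apart in comparisons of treated with untreated UACC62R. Each line was left untreated (0 h) or was given 10 uM CCG-222740, known as an inhibitor of transcription through MRTF and SRF, for 2, 6 or 24 h, with 2 libraries in each of the 8 groups. All cells were grown in DMEM with serum. No label says whether the 2 libraries of a group came from separate cultures. The p-values thus measure the spread between these libraries, which may be technical.

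MITF is the master regulator of the melanocyte lineage and switches on the genes of pigment synthesis. SOX10 and PAX3 activate MITF, and LEF1 joins them at the melanocyte-type promoter as a nuclear partner of beta-catenin in Wnt signalling. SOX9 is a related factor of neural crest and cartilage whose expression is often opposite to that of SOX10 in melanoma. TFAP2A binds DNA beside MITF at many melanocyte genes, and TFAP2C is its paralogue. ZEB1, ZEB2 and SNAI2 repress epithelial genes during the epithelial-mesenchymal transition, and in melanocytes ZEB2 and SNAI2 go with the differentiated state and ZEB1 with dedifferentiation.

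The melanocyte-type promoter of MITF is printed because several of the factors measured here are known to act at it. These are the 250 bases before the start that RefSeq gives for the melanocyte-type transcripts, at chr3:69936342-69936591 of GRCh38.p14, plus strand, 5′ to 3′. The capitals mark the letters CTTTGAT, a LEF and TCF motif, which begins 204 bases before the start, and the overlapping letters TGACGT and ACGTCA of a cyclic AMP response element, which begin 152 and 150 bases before it.

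MITF: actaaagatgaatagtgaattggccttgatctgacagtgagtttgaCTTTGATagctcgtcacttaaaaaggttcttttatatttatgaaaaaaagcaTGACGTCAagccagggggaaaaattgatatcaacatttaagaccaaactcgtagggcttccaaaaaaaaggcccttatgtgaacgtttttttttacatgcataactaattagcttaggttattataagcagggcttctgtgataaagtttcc

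Read on either strand, CTTTGAT was found in 2.26% of the 35116 RefSeq windows of 250 bases, and TGACGT in 7.10% of them. The letters ACAAT and ACAAAG (SOX factors), CATGTG (MITF's own M-box), CACCTG (ZEB and SNAI factors) and GCCNNNGGC (TFAP2 factors) were not in this window on either strand. They were in 24.6, 13.7, 9.42, 17.5 and 19.8% of all windows, in that order. A match or its absence is a description of letters in this window. The 2 windows at other MITF starts had no CTTTGAT or TGACGT, and each had ACAAT. The counts below sum reads over all MITF starts, so they do not separate the melanocyte-type transcript.

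The 16 libraries held 25.9 to 33.3 M reads in genes (median 29.9 M), and levels below are in CPM (counts per 1 M reads) after TMM scaling. The library labelled UACC62P 2 h replicate 1 stood apart. It was nearer the levels of UACC62R than of UACC62P for 9 of the 10 genes, with SOX10 at 18.1 and SOX9 at 106 CPM. TFAP2A was the exception, at 48.6 CPM, which lay within the ranges of both lines. SOX10, SOX9, PAX3 and SNAI2 lay outside the ranges of both lines. This library was left out of the fit, which used 15 libraries, because earlier results of these data had shown the same likeness, and its values are given on their own. Each statement below that the lines do or do not overlap is over these 15 libraries, and so depends at 2 h on leaving it out. At 2 h UACC62P has then 1 library, which is assumed to vary like the other groups. Of 7 melanocyte and melanoma markers, 6 were above 1 CPM in every UACC62P library and 1 in every UACC62R library, and their summed level was 674 to 745 CPM in UACC62P and 4.56 to 8.51 CPM in UACC62R. The 6 fibroblast markers summed to 34.6 to 41.5 CPM in UACC62P and 320 to 610 CPM in UACC62R, with 4 of them above 1 CPM in every library of each line and none without reads. In untreated cells COL1A1 was most of the UACC62R sum, at means of 3.99 CPM in UACC62P and 416 CPM in UACC62R. The means of FAP, LUM and THY1 were also higher in untreated UACC62R. Those of PDGFRA (3.86 CPM in UACC62P and 2.81 CPM in UACC62R) and DCN (0.61 and 0.32 CPM) were lower. Of 6 epithelial markers, 2 were above 1 CPM in every library of each line, with sums of 26.4 to 39.6 CPM in UACC62P and 65.7 to 91.6 CPM in UACC62R. Most of these sums was KRT18, at means of 24.2 CPM in untreated UACC62P and 71.3 CPM in untreated UACC62R. The 5 endothelial markers (sums of 1.10 to 4.77 CPM) and 6 blood markers (0.256 to 1.49 CPM) were low in both lines, and PECAM1, CD3E and HBB had 0 reads. The part of these markers in the results was not tested.

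The largest differences among the 10 genes lay between the lines, and SOX10 and SOX9 differed in opposite directions. In the untreated UACC62P libraries SOX10 stood at 919 and 787 CPM (replicates 1 and 2), against 25.98 and 26.26 CPM in UACC62R. SOX9 stood at 2.18 and 1.62 CPM in untreated UACC62P, against 141 and 125 CPM in UACC62R. In the 15 libraries the lines did not overlap for either gene at any time. Across the 7 UACC62P libraries SOX10 ranged from 741 to 919 CPM (median 802.5), and across the 8 UACC62R libraries from 20.0 to 29.9 CPM (median 26.1). SOX9 ranged from 0.848 to 2.18 CPM in UACC62P, from 24 to 68 reads a library, and from 111 to 171 CPM in UACC62R. SOX10 was thus 32.65-fold lower in untreated UACC62R (log2 fold change -5.03 ± 0.12 SE; adjusted p = 2.26e-13, edgeR's quasi-likelihood test with Benjamini-Hochberg adjustment). SOX9 was 69.7-fold higher (6.12 ± 0.26 SE; adjusted p = 1.04e-10, edgeR). In bulk RNA, fewer cells with a transcript and less of it per cell cannot be told apart.

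MITF and PAX3 were also lower in UACC62R, by less than SOX10. MITF, the lineage regulator, stood at 248 and 219 CPM in untreated UACC62P and at 53.4 and 47.6 CPM in UACC62R, a log2 fold change of -2.21 ± 0.11 SE (adjusted p = 4.23e-10, edgeR). The lowest UACC62P library of any time had 132 CPM and the highest UACC62R library 53.5 CPM, so MITF separated the lines throughout. PAX3, a paired-box factor of the early lineage, stood at 40.9 and 35.8 CPM in untreated UACC62P and at 24.8 and 24.1 CPM in UACC62R, a log2 fold change of -0.65 ± 0.09 SE (adjusted p = 2.82e-05, edgeR). PAX3 too did not overlap between the lines, at 35.4 to 40.9 CPM over all UACC62P libraries and 22.7 to 25.1 CPM over all UACC62R libraries.

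**Figure D1:**
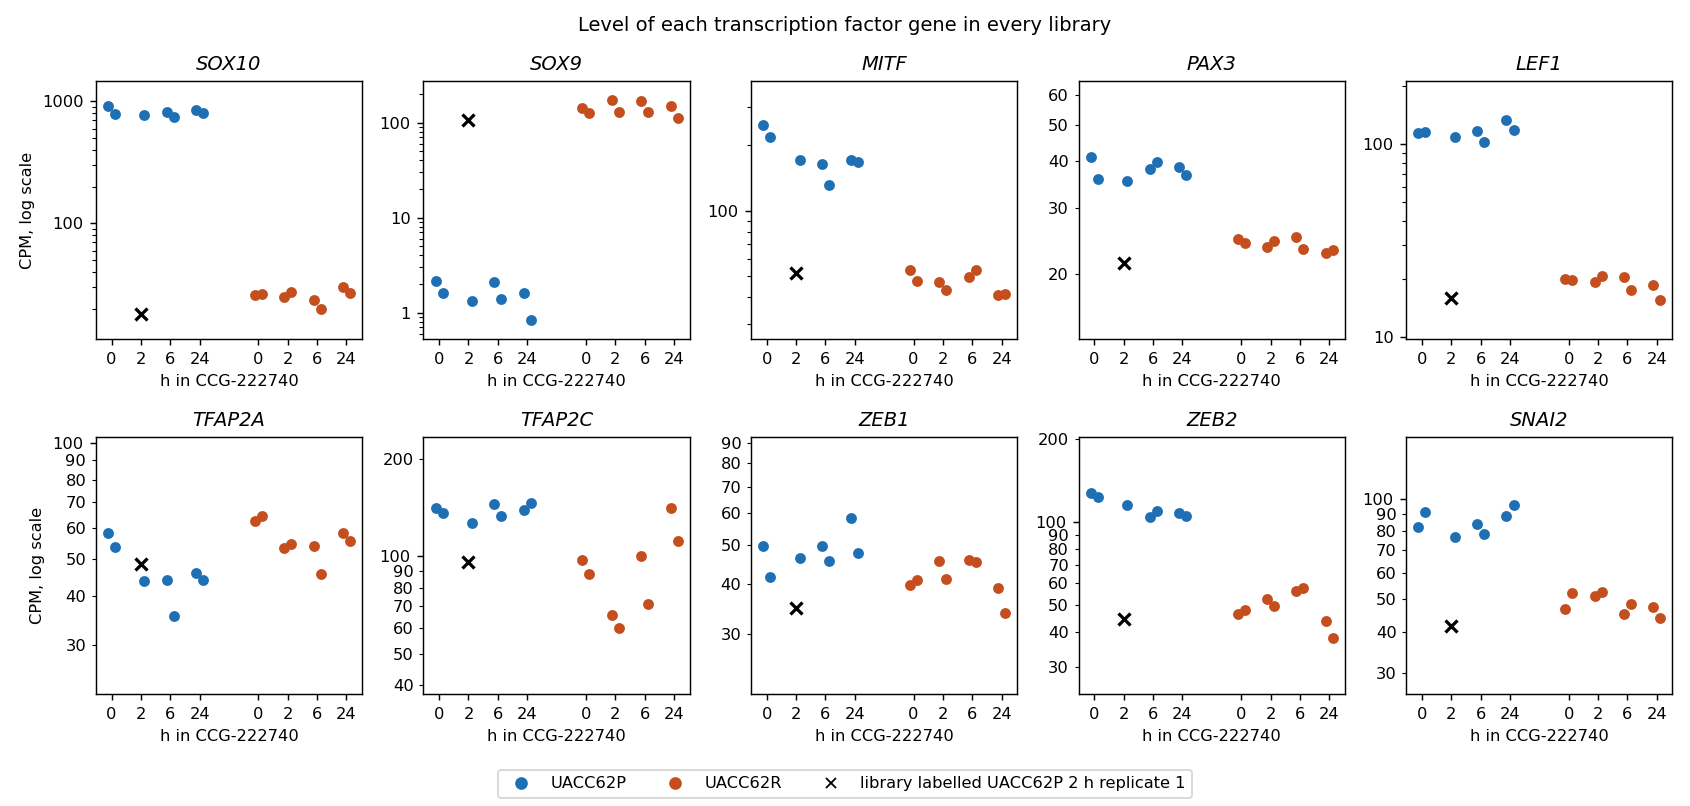
Level of each of the 10 genes in every library (CPM scaled by TMM, log axis) against hours in 10 uM CCG-222740, placed at equal steps, with blue points for UACC62P, orange for UACC62R and a cross for the library labelled UACC62P 2 h replicate 1. SOX10 sits at 741 CPM or more in the blue points and 29.9 CPM or less in the orange ones, SOX9 is the other way round, and the cross lies near the orange points for 9 of 10 genes.

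Of the Wnt and AP-2 factors, LEF1 and TFAP2C were lower in untreated UACC62R. LEF1 stood at 114 and 115 CPM in untreated UACC62P and at 20.0 and 19.8 CPM in UACC62R, a log2 fold change of -2.53 ± 0.11 SE (adjusted p = 1.31e-10, edgeR). LEF1 did not overlap between the lines at any time. TFAP2C stood at 141 and 136 CPM in untreated UACC62P and at 97.4 and 88.2 CPM in UACC62R, a log2 fold change of -0.58 ± 0.14 SE (adjusted p = 0.00253, edgeR). The log2 fold change of TFAP2C between the lines was -1.01 ± 0.16 SE at 2 h, -0.69 ± 0.14 SE at 6 h and -0.17 ± 0.14 SE at 24 h, where the libraries of the lines overlapped (edgeR's adjusted p = 0.298, interval of the difference -0.47 to 0.12). The change of this gap with time did not pass (edgeR's adjusted p = 1 at 6 h and 0.477 at 24 h, against 0 h). TFAP2A, its paralogue, had the reverse sign. It stood at 58.4 and 53.7 CPM in untreated UACC62P and at 62.6 and 64.7 CPM in UACC62R, and the log2 fold change of 0.18 ± 0.10 SE did not pass (edgeR's adjusted p = 0.156, interval -0.04 to 0.41). Scaled by library size alone it was 0.26 (adjusted p = 0.0324, edgeR), under a scaling that moved the median of all genes to 0.10. At 2 h it was 0.30 ± 0.13 SE (edgeR's adjusted p = 0.0767; 0.0323 scaled by library size alone). TFAP2A passed as higher in UACC62R at 6 h (0.32 ± 0.11 SE; adjusted p = 0.0202, edgeR; 0.0547 with all 16 libraries) and at 24 h (0.34 ± 0.11 SE; adjusted p = 0.0137, edgeR). The call at 6 h was lost without UACC62P 6 h replicate 2 or UACC62R 6 h replicate 1 (edgeR's adjusted p = 0.229 and 0.223), and that at 24 h without UACC62P 24 h replicate 2 or UACC62R 24 h replicate 1 (edgeR's adjusted p = 0.0801 and 0.0721).

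The 3 repressors of epithelial genes differed from each other. ZEB2 stood at 127 and 123 CPM in untreated UACC62P and at 46.5 and 48.3 CPM in UACC62R, a log2 fold change of -1.40 ± 0.08 SE (adjusted p = 2.6e-09, edgeR). SNAI2 stood at 82.2 and 90.9 CPM in untreated UACC62P and at 46.8 and 52.1 CPM in UACC62R, a log2 fold change of -0.81 ± 0.09 SE (adjusted p = 2.36e-06, edgeR). Neither gene overlapped between the lines. ZEB1 stood at 49.6 and 41.5 CPM in untreated UACC62P and at 39.6 and 40.9 CPM in UACC62R, which did not overlap but did not pass (-0.18 ± 0.12 SE; edgeR's adjusted p = 0.218, interval -0.43 to 0.07). At 24 h ZEB1 was lower in UACC62R, at 39.1 and 33.8 CPM against 58.4 and 47.8 CPM (-0.54 ± 0.12 SE; adjusted p = 0.00115, edgeR). Over all times the ZEB1 ranges of the lines overlapped, at 41.5 to 58.4 CPM in UACC62P and 33.8 to 45.8 CPM in UACC62R.

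In sum over the untreated lines, 8 of the 10 genes passed at an adjusted p under 0.05 by edgeR, 1 higher and 7 lower in UACC62R, where 53.9% of all genes tested passed (27.8% higher and 26.1% lower). The median log2 fold change was -0.73 over the 10 genes and 0.02 over all genes tested. At 2 h 8 of the 10 passed (45.5% of all genes), 1 higher (22.9%) and 7 lower (22.6%). At 6 h 9 passed (51.4% of all genes), 2 higher (26.5%) and 7 lower (25%). At 24 h 9 passed (55.2% of all genes), 2 higher (28.1%) and 7 lower (27%), with TFAP2A as the added higher gene at both times. With all 16 libraries in the fit the counts were 8, 0, 8 and 9 at 0, 2, 6 and 24 h. Of the 19352 genes tested in that fit, 7847, 70, 6815 and 8127 passed, in that order.

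**Figure D2:**
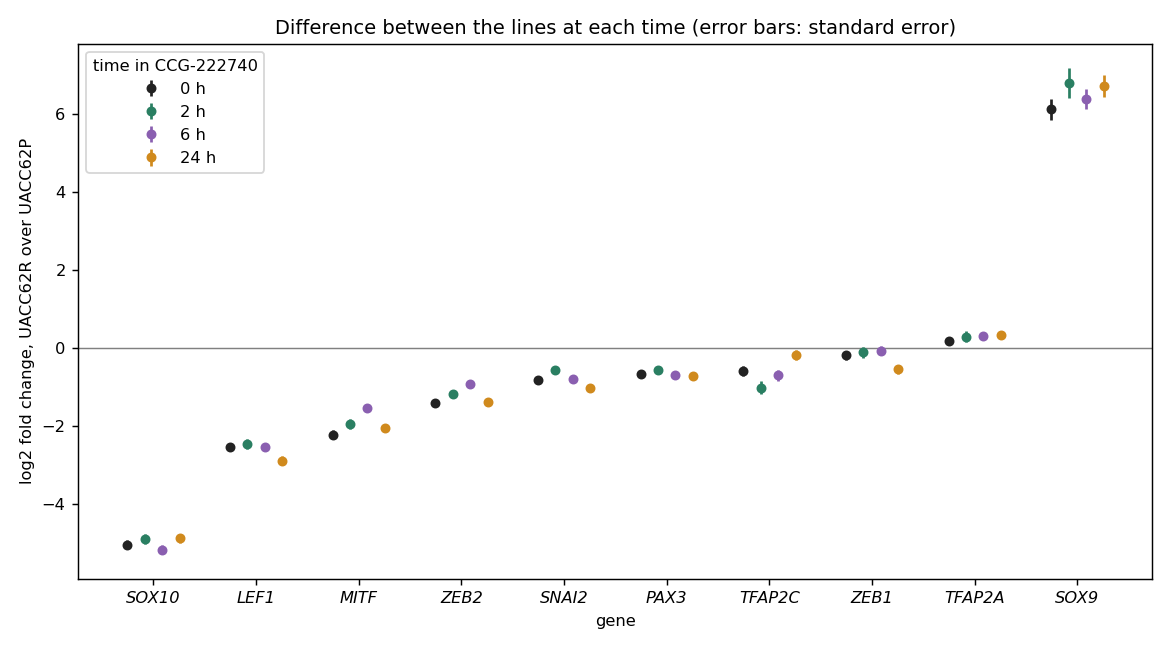
Log2 fold change of UACC62R over UACC62P for each gene at 0, 2, 6 and 24 h (points, with standard errors from edgeR as bars), ordered by the value at 0 h. SOX10 lies near -5 and SOX9 above 6 at each time, and PAX3, TFAP2A and ZEB1 lie within 1 of 0 at each time.

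Per length, SOX10 was the highest of the 10 genes in UACC62P and SOX9 in UACC62R, over all times together. Levels in this paragraph are reads per kilobase of the union of a gene's exons per 1 M reads, as the mean over a line's libraries with its SD (n = 7 in UACC62P and n = 8 in UACC62R, over all times). In UACC62P SOX10 was at 220 ± 15.9, followed by TFAP2C at 45.9 ± 2.29, and SOX9 was the lowest at 0.403 ± 0.117. MITF (25.4 ± 5.37) and SNAI2 (25.1 ± 2.04) came next, and their order was not the same at each time: MITF was at 32.5 ± 2.81 and SNAI2 at 25.5 ± 1.83 in untreated cells (n = 2), and at 20.6 ± 3.21 and 23.9 ± 1.13 at 6 h (n = 2). LEF1 was at 21.5 ± 1.71. TFAP2A, ZEB1, PAX3 and ZEB2 lay between 4.51 and 5.63. In UACC62R the highest were SOX9 at 35.7 ± 5.35 and TFAP2C at 30.6 ± 8.92, followed by SNAI2 at 14.3 ± 0.962. TFAP2C was below SOX9 at 2 h, at 20.9 ± 1.435 against 38.0 ± 7.56 (n = 2), while at 24 h their means were 42.0 ± 6.88 and 33.02 ± 6.96 (n = 2); the differences between these genes were not tested. SOX10 (6.91 ± 0.785), TFAP2A (6.78 ± 0.713) and MITF (6.54 ± 0.696) were close together, and ZEB2 was the lowest at 1.96 ± 0.258. The exon union of ZEB2 is long, so its level per length is low for its CPM.

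The paralogues and known targets of these factors also differed between the untreated lines, in lists chosen by name. Their counts are to be read against the 53.9% of all genes tested that passed in this comparison (27.8% higher and 26.1% lower). Of 18 MITF targets tested, 1 was higher and 13 lower in UACC62R by edgeR (median log2 fold change -2.55). Tyrosinase (TYR), the first enzyme of melanin synthesis, stood at 143 to 144 CPM in UACC62P and 0.156 to 0.231 CPM in UACC62R, the latter from 12 reads over both libraries. MLANA, a melanosome antigen, stood at 128 to 130 CPM and 0.470 to 0.494 CPM. BCL2A1, a survival gene, was lower by edgeR (-4.28 ± 0.14 SE), and MLPH, a linker of melanosomes to myosin, was the gene that was higher (2.06 ± 0.07 SE). Of 12 SOX10 targets tested, 1 was higher and 10 lower (median -3.69). The receptor gene ERBB3 stood at 367 to 387 CPM in UACC62P and 1.10 to 1.15 CPM in UACC62R, the connexin gene GJB1 at 346 to 381 CPM and 0.363 to 0.376 CPM, and S100B at 396 to 411 CPM and 2.191 to 3.165 CPM. The myelin gene MBP was the one that was higher, at 0.346 to 0.721 CPM in UACC62P and 11.5 to 15.7 CPM in UACC62R. The medians of these lists compare with 0.02 over all genes tested, and the lists hold genes also counted as melanocyte markers.

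Against the same 53.9% of all genes, 9 of 11 paralogues passed. Of these, 6 were higher and 3 lower in untreated UACC62R by edgeR (median 1.46, also with PAX7, which had 0 reads in untreated UACC62P, set to the bound that 3 reads over the group allow). Several of the 11, PAX7 and TFEC among them, had 5 reads or fewer over both untreated UACC62P libraries, and the median is the value of TFE3. TFE3, of the MITF family, stood at 60.0 to 62.6 CPM in UACC62P and 165 to 173 CPM in UACC62R (1.46 ± 0.07 SE). TCF7, of the LEF1 family, was higher (3.93 ± 0.24 SE), as was the MITF relative TFEC (4.35 ± 0.54 SE, from 5 reads over both UACC62P libraries). SOX8, of the family of SOX9 and SOX10, was lower, at 6.02 to 6.23 CPM in UACC62P and 0.156 to 0.264 CPM in UACC62R. Of 15 other neural crest factors, 3 were higher and 10 lower (median -1.13), among them SOX6 (-5.75 ± 0.23 SE), MYC (-2.44 ± 0.11 SE) and POU3F2 (-2.02 ± 0.10 SE). RXRG stood at 115 to 135 CPM in UACC62P and had 4 reads over both UACC62R libraries. Of 10 other factors of the epithelial-mesenchymal transition, 4 were higher and 6 lower. TCF4 was higher (2.68 ± 0.10 SE), and the other higher genes each had 5 reads or fewer over both untreated UACC62P libraries. Among the lower ones were PRRX1 (-1.72 ± 0.09 SE), FOXC1 (-0.70 ± 0.13 SE) and TCF3 (-0.60 ± 0.09 SE).

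Genes repressed by ZEB and SNAI factors were few in these lines: 6 of 20 listed passed the filter, and CDH1, the E-cadherin gene, had 0 reads in the libraries of 0 and 24 h of both lines. Of the 6, 2 were higher and 4 lower in untreated UACC62R by edgeR (median -1.81), where 53.9% of all genes passed. CLDN1, a tight junction gene, stood at 33.1 to 38.3 CPM in UACC62P and 1.45 to 2.54 CPM in UACC62R. ESRP1 (-6.38 ± 0.52 SE, from 8 reads in UACC62R) and MARVELD2 (-2.35 ± 0.28 SE) were lower, and PATJ was higher (0.82 ± 0.18 SE). Of 9 Wnt feedback targets, 4 were higher and 2 lower (median 0.18), a share near that of all genes. DKK1, a secreted Wnt antagonist, stood at 0.658 to 0.793 CPM in UACC62P and 139 to 158 CPM in UACC62R. CCND1 was higher (1.86 ± 0.13 SE) and NKD1 lower (-2.31 ± 0.26 SE).

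**Figure D3:**
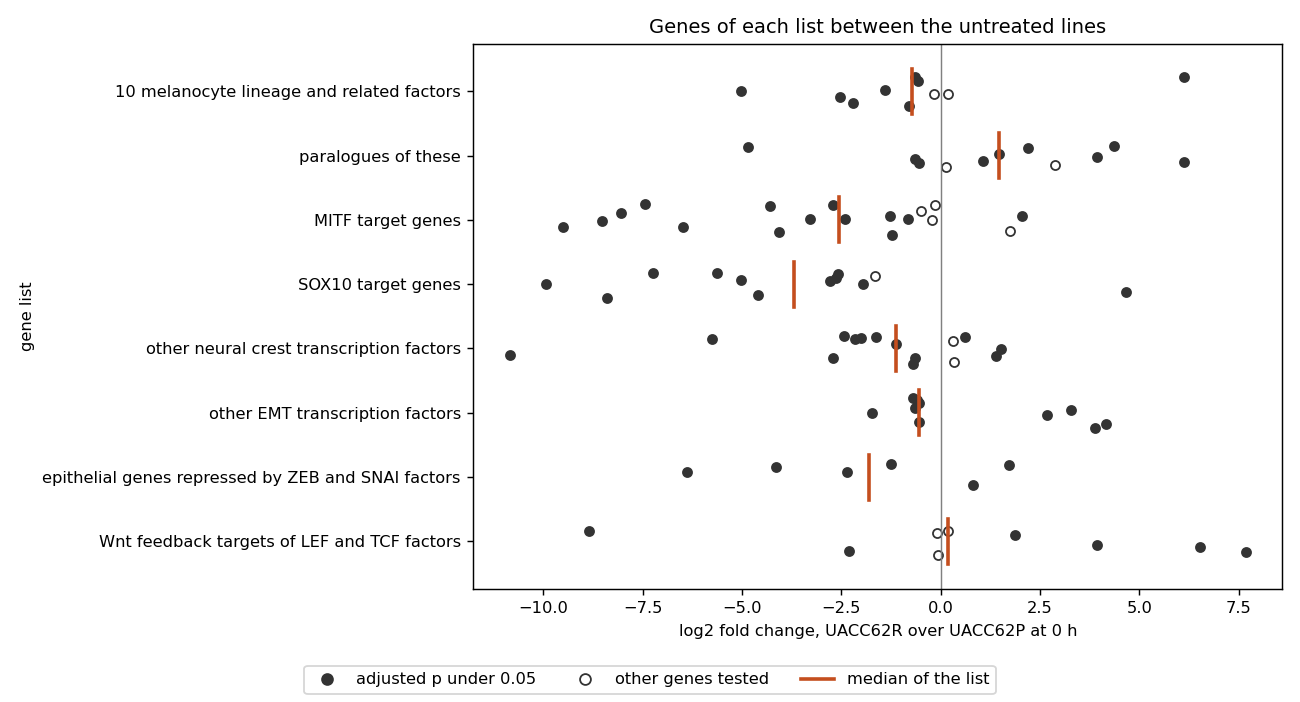
Log2 fold change of UACC62R over UACC62P at 0 h for each gene tested, by list (filled points for an adjusted p under 0.05 by edgeR, open points for the others, orange line for the list's median; vertical scatter has no meaning). The medians of the MITF and SOX10 target lists lie at -2.55 and -3.69, and that of the Wnt feedback list at 0.18.

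During CCG-222740 MITF fell in UACC62P. MITF stood in UACC62P at 248 and 219 CPM at 0 h, 172 CPM at 2 h, 164 and 132 CPM at 6 h and 171 and 167 CPM at 24 h. The libraries of 6 and 24 h lay below both untreated ones. The log2 fold change against 0 h was -0.44 ± 0.13 SE at 2 h (edgeR's adjusted p = 0.839), -0.65 ± 0.10 SE at 6 h (adjusted p = 0.00481, edgeR) and -0.46 ± 0.10 SE at 24 h (adjusted p = 0.0219, edgeR). The call at 6 h was lost without UACC62P 0 h replicate 1 (adjusted p = 0.0617, edgeR) or without UACC62P 6 h replicate 2 (adjusted p = 0.0885, edgeR), and that at 24 h without UACC62P 0 h replicate 1 or either library of 24 h (edgeR's adjusted p from 0.133 to 0.152). All comparisons with 0 h in a line share its untreated libraries. The labels describe the untreated libraries in other words than the treated ones and no vehicle library was used here, so a separate handling of the untreated cells and the compound cannot be told apart in them.

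TFAP2A fell in UACC62P at 6 h. It stood at 58.4 and 53.7 CPM at 0 h, 43.9 CPM at 2 h, 44.1 and 35.7 CPM at 6 h and 46.0 and 44.1 CPM at 24 h, with every treated library below both untreated ones. The log2 fold change was -0.49 ± 0.11 SE at 6 h (adjusted p = 0.0352, edgeR) and -0.31 ± 0.11 SE at 24 h, which did not pass (edgeR's adjusted p = 0.121; 0.0200 with the replicate block). The call at 6 h was lost without either untreated library or UACC62P 6 h replicate 2 (edgeR's adjusted p from 0.113 to 0.353). ZEB2 stood at 127 and 123 CPM at 0 h and at 107 and 105 CPM at 24 h, a log2 fold change of -0.24 ± 0.08 SE (edgeR's adjusted p = 0.117; 0.0298 with the replicate block).

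ZEB2 and the other 7 genes did not pass in UACC62P at any time. SOX10 changed by -0.04 ± 0.10 SE at 24 h on the log2 scale, with an interval from -0.25 to 0.17, and TFAP2C by 0.04 ± 0.14 SE (-0.25 to 0.33). LEF1 stood at 0.13 ± 0.10 SE, PAX3 at -0.03 ± 0.09 SE, ZEB1 at 0.22 ± 0.12 SE and SNAI2 at 0.09 ± 0.09 SE. SOX9, with few reads in UACC62P, had the widest interval, from -1.45 to 0.20. By edgeR, 0 of the 10 genes passed at 2 h (2 at an unadjusted p under 0.05; 0.0444% of all genes passed), 2 at 6 h, both lower (1.52% of all genes, 0.671% lower), and 1 at 24 h, lower (3.85% of all genes, 1.65% lower). With all 16 libraries none of the 10 passed in any comparison of times, where 344 or fewer of the 19352 genes tested passed.

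In UACC62R the largest movements with time among these genes were those of TFAP2C. It stood at 97.4 and 88.2 CPM at 0 h, 66.0 and 59.9 CPM at 2 h, 100 and 71.2 CPM at 6 h and 141 and 112 CPM at 24 h. Both libraries of 2 h lay below, and both of 24 h above, the untreated ones. The log2 fold change against 0 h was -0.56 ± 0.14 SE at 2 h (edgeR's adjusted p = 0.423; 0.00945 with the replicate block). At 24 h TFAP2C rose, by 0.44 ± 0.14 SE (adjusted p = 0.0434, edgeR). That call was lost with DESeq2's size factors in edgeR (adjusted p = 0.0509), and without UACC62R 0 h replicate 1, UACC62R 0 h replicate 2 or UACC62R 24 h replicate 1.

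MITF in UACC62R stood at 53.4 and 47.6 CPM at 0 h, 46.7 and 42.9 CPM at 2 h, 49.5 and 53.5 CPM at 6 h and 41.0 and 41.4 CPM at 24 h. The libraries of 24 h lay below the untreated ones, with a log2 fold change of -0.29 ± 0.11 SE that did not pass (edgeR's adjusted p = 0.0825; 0.0169 with the replicate block). TFAP2A stood at 62.6 and 64.7 CPM at 0 h and at 54.1 and 45.7 CPM at 6 h, a log2 fold change of -0.35 ± 0.10 SE (edgeR's adjusted p = 0.221; 0.0232 with the replicate block). ZEB2 stood at 46.5 and 48.3 CPM at 0 h, 52.9 and 49.9 CPM at 2 h, 56.2 and 57.7 CPM at 6 h and 44.1 and 38.1 CPM at 24 h. Its libraries of 6 h were the highest and those of 24 h the lowest, and against 0 h the log2 fold change at 24 h was -0.21 ± 0.08 SE (edgeR's adjusted p = 0.11; 0.0453 with the replicate block). SOX10 changed by 0.12 ± 0.10 SE at 24 h (interval -0.10 to 0.35) and SOX9 by -0.04 ± 0.18 SE (interval -0.42 to 0.35). The values at 24 h were -0.09 ± 0.09 SE for PAX3, -0.22 ± 0.11 SE for LEF1, -0.14 ± 0.12 SE for ZEB1 and -0.12 ± 0.09 SE for SNAI2. By edgeR, 0 of the 10 genes passed at 2 h (2 at an unadjusted p under 0.05; 0.0740% of all genes passed), 0 at 6 h (3 at an unadjusted p under 0.05; 0.666% of all genes) and 1 at 24 h, higher (14.7% of all genes, 6.48% higher).

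**Figure D4:**
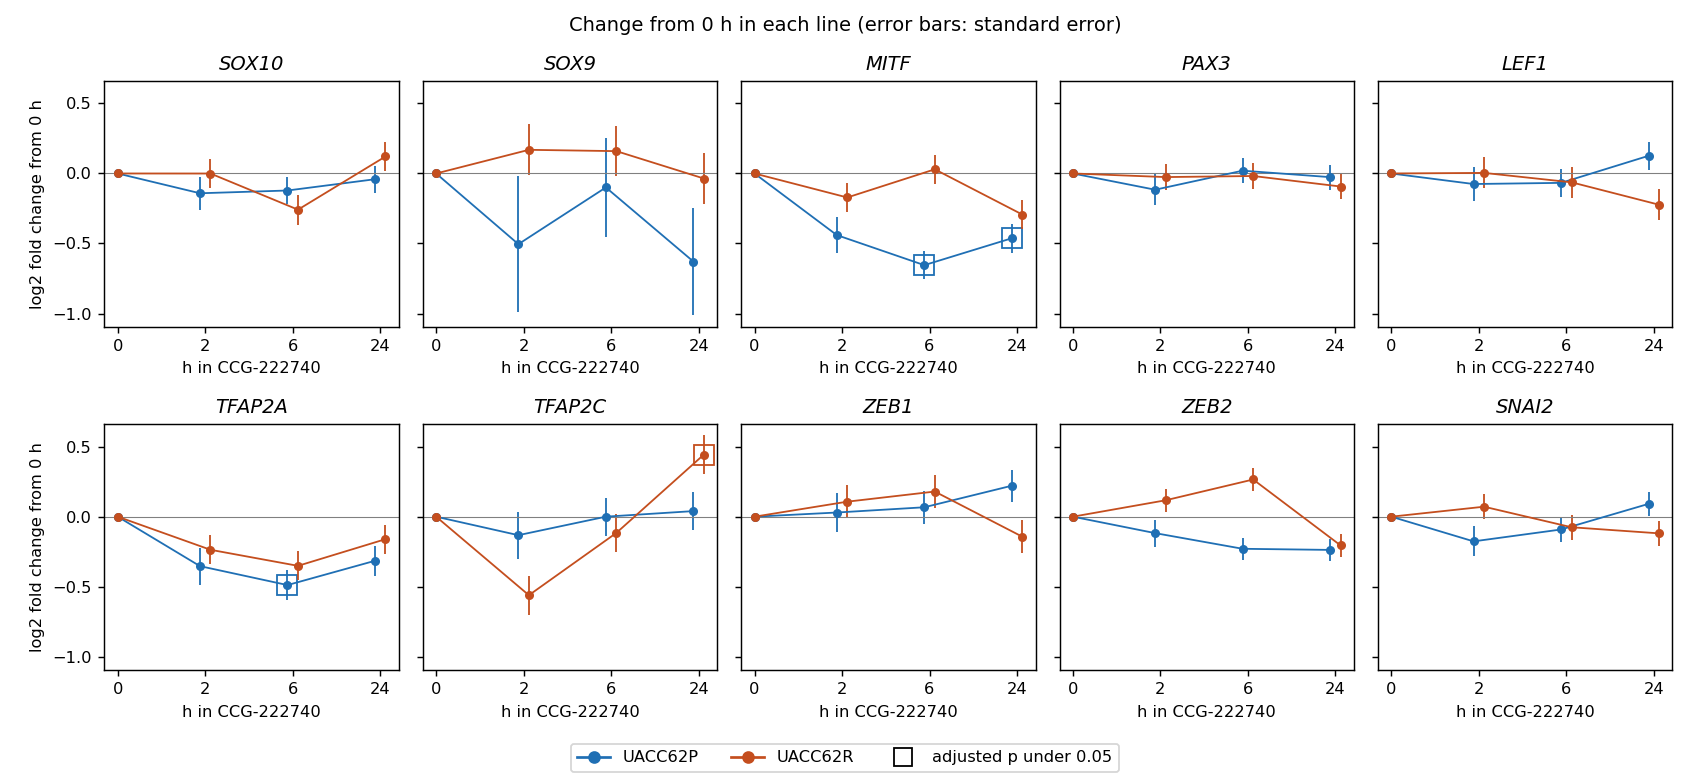
Log2 fold change from 0 h for each gene (points, with standard errors from edgeR as bars; equal steps for 2, 6 and 24 h) in UACC62P (blue) and UACC62R (orange), with squares at an adjusted p under 0.05. MITF is boxed at 6 and 24 h in UACC62P, TFAP2A at 6 h in UACC62P, and TFAP2C at 24 h in UACC62R.

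Between 6 and 24 h, a comparison among treated libraries alone, 3 of the 10 genes passed in UACC62R (2 higher and 1 lower; 12.6% of all genes passed, 5.18% higher and 7.39% lower) and 0 in UACC62P (0 also at an unadjusted p under 0.05; 0.735% of all genes) by edgeR. ZEB2 fell by 0.47 ± 0.08 SE on the log2 scale (adjusted p = 0.00202, edgeR). SOX10, from 23.7 and 20.0 CPM at 6 h to 29.9 and 27.0 CPM at 24 h, rose by 0.38 ± 0.11 SE (adjusted p = 0.0316, edgeR). TFAP2C rose by 0.56 ± 0.14 SE (adjusted p = 0.0166, edgeR). The libraries of the 2 times did not overlap for any of the 3 genes. These were picked by the test on the same libraries, so this adds no support. The share of all genes without overlap is not given here. The calls of SOX10 and TFAP2C were lost without UACC62R 6 h replicate 2 or UACC62R 24 h replicate 1. With the replicate block MITF (-0.32 ± 0.08 SE; adjusted p = 0.00946, edgeR) and ZEB1 (-0.33 ± 0.08 SE; adjusted p = 0.00819, edgeR) passed too, against 0.0626 and 0.0887 without it. MITF passed here also by DESeq2 (adjusted p = 0.0385) and without the filter on low counts (adjusted p = 0.0171, edgeR), and ZEB1 without that filter (adjusted p = 0.0495, edgeR). In UACC62P MITF changed by 0.19 ± 0.10 SE between these times (interval -0.03 to 0.41).

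Whether the lines responded differently was tested as the response of UACC62R minus that of UACC62P, and 0 of the 10 genes passed by edgeR at 6 h (2 at an unadjusted p under 0.05; 0.00493% of all genes passed) or at 24 h (2 at an unadjusted p under 0.05; 0.562% of all genes). The largest value at 6 h was that of MITF, at 0.68 ± 0.15 SE on the log2 scale: it stood at -0.65 in UACC62P and 0.03 in UACC62R (edgeR's adjusted p = 0.362; 0.0205 with the replicate block). DESeq2 gave an adjusted p of 0.0311 for it. ZEB2 followed at 0.49 ± 0.11 SE, with -0.23 in UACC62P and 0.27 in UACC62R (edgeR's adjusted p = 0.454; 0.0479 with the replicate block). At 24 h the difference was 0.17 for MITF (interval -0.15 to 0.48) and 0.03 for ZEB2 (interval -0.21 to 0.27). TFAP2C, which passed at 24 h in UACC62R and not in UACC62P, had a difference of 0.40 ± 0.19 SE (edgeR's adjusted p = 0.477, interval -0.01 to 0.82).

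In UACC62P at 24 h, where 3.85% of all genes passed (1.65% lower), 0 of 18 MITF targets rose and 4 fell by edgeR (median -0.30 against 0.00 over all genes): MLPH (-0.52 ± 0.07 SE), RAB27A (-0.49 ± 0.08 SE), MLANA (-0.46 ± 0.10 SE) and PPARGC1A (-1.04 ± 0.25 SE), a coactivator of mitochondrial genes. Of 12 SOX10 targets, ERBB3 rose (0.37 ± 0.08 SE) and CDH19 fell (-0.73 ± 0.14 SE). TFE3 (0.35 ± 0.07 SE) and SOX8 (0.81 ± 0.21 SE) were the 2 of 11 paralogues that rose, and ETS1 the 1 of 15 neural crest factors that fell (-0.42 ± 0.08 SE). None of the 10 other factors of the epithelial-mesenchymal transition, the 6 epithelial genes or the 9 Wnt feedback targets passed. With all 16 libraries none of the genes named in this paragraph passed.

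In UACC62R at 24 h, where 14.7% of all genes passed (6.48% higher and the rest lower), 2 of 18 MITF targets rose and 3 fell by edgeR (median 0.04 against 0.01 over all genes). GPNMB (0.34 ± 0.07 SE) and RAB38 (0.42 ± 0.13 SE) rose, and CDK2 (-0.76 ± 0.12 SE), MLPH (-0.40 ± 0.07 SE) and MLANA (-1.25 ± 0.40 SE, from 30 to 13 reads) fell. Of 12 SOX10 targets 4 rose and 2 fell (median 0.77): ERBB3 from 1.10 to 1.15 CPM to 2.04 to 2.50 CPM, EDNRB by 0.90 ± 0.18 SE, MBP by 1.07 ± 0.22 SE and S100B by 0.77 ± 0.17 SE. At 24 h ERBB3 and S100B were still far below their levels in UACC62P, which were 474 to 501 and 399 to 418 CPM. Of 15 other neural crest factors 2 rose and 4 fell, with ETS1 at -0.97 ± 0.09 SE, MYC at -0.66 ± 0.11 SE, POU3F2 at -0.41 ± 0.11 SE and ID2, a dominant negative partner of basic helix-loop-helix factors, at 0.75 ± 0.14 SE. None of the 11 paralogues passed. TCF3 was the 1 of 10 other factors of the epithelial-mesenchymal transition that fell (-0.48 ± 0.09 SE), CLDN1 the 1 of 6 epithelial genes that fell (-1.32 ± 0.33 SE, from 125 to 52 reads). Of 9 Wnt feedback targets DKK1 fell (-1.02 ± 0.14 SE) and RNF43 rose (0.50 ± 0.12 SE). With all 16 libraries none of the genes named in this paragraph passed.

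For the 5 genes that passed in a comparison of times, the genes with the most similar pattern over the 15 libraries were found after the mean of each line was subtracted, among 8019 named protein-coding genes. Pearson's r of log2 CPM is a description, since libraries share depth and composition. Differences between the replicate numbers that the groups share were not subtracted, and their part in r was not tested. For MITF they were RUNX1 (r = 0.855), MAGEA12 (0.827) and DIP2B (0.818). For TFAP2A they were KANSL3 (0.915), MOGS (0.886) and RBMXL1 (0.879), and for TFAP2C SPRY2 (0.895), MAU2 (0.893) and LYST (0.882). For SOX10 they were CIC (0.885), FBXL19 (0.879) and TNRC18 (0.869), and for ZEB2 NEDD4L (0.937), GRPEL1 (0.932) and AKAP12 (0.916).

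Antisense genes lie beside several of the 10 genes, and the labels and notes name no strand option for HTSeq. Reads of such pairs may not be fully separated. Their levels were low. ZEB1-AS1 stood at 2.63 CPM in untreated UACC62P and 3.39 CPM in UACC62R, TFAP2A-AS1 at 1.08 and 1.37 CPM, SOX9-AS1 at 0.0526 and 0.466 CPM and LEF1-AS1 at 0.303 and 0.0808 CPM (means of 2 libraries). ZEB2-AS1 had 2 reads over the untreated UACC62P libraries and 0 over those of UACC62R.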

How the data were processed

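Stranded poly(A) RNA was sequenced as single 50 bp reads, per the labels' protocols. The submitters' processing notes name HISAT2 2.1.0 and the build hg19, HTSeq 0.6.1 and also Trimmomatic 0.33, bcl2fastq 2.19.0 and FastQC 0.11.5. The authors deposited raw counts per Ensembl gene ID for each of 16 libraries, with no normalization. The 5 summary lines were kept out: 6.12 to 17.8% of reads were unaligned, 18.6 to 22.0% aligned to more than 1 place, and 3.31 to 4.66% and 5.99 to 6.81% of uniquely aligned reads lay in no gene or in several.

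The 10 genes, the other lists and the tests were chosen with earlier results of these data known. The library labelled UACC62P 2 h replicate 1 was left out of the fit because those results showed that it resembles UACC62R. The other 15 libraries were scaled by TMM, filtered by filterByExpr on the groups and tested with edgeR 4.0.16 (quasi-likelihood F test; R 4.3.3, limma 3.58.1) and 1 coefficient per group (7 residual degrees of freedom). P-values were adjusted by Benjamini-Hochberg over all genes tested, and a gene was called under 0.05. Standard errors are log2 fold changes over the square root of F, and intervals are 95%. The code was tested on simulated data.

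Replicate numbers are shared by all groups. The deviations of same-numbered libraries from their group means correlated in 21 of 21 pairs of 7 groups (r 0.17 to 0.72, from 8273 genes whose mean log2 CPM was above 4), so the numbers were taken to pair the libraries, on this evidence and no label's. The main fit did not use this pairing. Blocked fits are given where they change a call.

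All 10 genes are named in each comparison. Of each other list, up to 4 called genes by smallest p were named for the untreated lines and for 24 h in each line. One gene that this rule names is not reported here. MBP between the untreated lines, CDH1, THY1, DCN and the antisense genes fall outside this rule and were named after their values were seen. Exon lengths came from GENCODE release 29, of another build, and the promoter from the RefSeq table of GRCh38.p14, which had windows for 6 of the 10 genes. Alternatives were all 16 libraries, the block, other scalings, DESeq2 1.42.0, no filter on low counts, and leaving out each library in turn. Counting error is small at these depths except for SOX9 in UACC62P.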

Additional observations from a re-analysis of the deposited data

How the results depend on the processing

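The number of the 10 genes called was recomputed under each alternative, and no fold change that passed turned its sign. With all 16 libraries the count was 0 between the lines at 2 h, 0 in UACC62P at 6 h and 24 h, 0 in UACC62R at 24 h and 0 between 6 and 24 h in UACC62R. Of the 19352 genes tested in that fit, 70, 10, 29, 344 and 158 passed in these comparisons, in that order. With the library labelled UACC62P 2 h replicate 1 the common dispersion was 0.0622, against 0.00985 without it. With the replicate block the counts were 3 in UACC62P at 24 h, 1, 1 and 3 in UACC62R at 2, 6 and 24 h, 5 between 6 and 24 h in UACC62R and 2 for the difference of response at 6 h, and the block changed no other call. Of all 20280 genes tested, 2448, 74, 566, 4898, 4491 and 43 passed with the block in these comparisons, in that order. Without the block 780, 15, 135, 2984, 2550 and 1 passed, so more genes of any kind were called with it. Without a filter on low counts they were 1 in UACC62P at 2 h, 1 and 2 in UACC62R at 2 and 24 h, 5 between 6 and 24 h in UACC62R and 1 for the difference of response at 6 h. DESeq2 gave 1 for the last and also called MITF between 6 and 24 h in UACC62R (adjusted p = 0.0385), library size alone called TFAP2A between the lines at 0 and 2 h (adjusted p = 0.0324 and 0.0323, edgeR), and DESeq2's size factors in edgeR gave 0 in UACC62R at 24 h. The causes of these changes were not tested. Numbers of all genes passing without the filter, by DESeq2, under other scalings or with a library left out are not given here.

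Leaving out each library in turn gave 8 to 8 between the lines at 0 h and at 2 h, 8 to 9 at 6 h and at 24 h, 0 to 2 in UACC62P at 6 h, 0 to 1 in UACC62P at 24 h, 0 to 1 in UACC62R at 24 h and 1 to 3 between 6 and 24 h in UACC62R, and 0 to 0 in the other 6 comparisons. Leaving out UACC62P 2 h replicate 2 gives no value for the comparisons of UACC62P at 2 h. Over single genes and comparisons, 580 results with a library left out kept their side of the threshold, 19 lost a call and 1 gained one (ZEB2 in UACC62R at 24 h without UACC62R 24 h replicate 1). Depth does not limit these genes except SOX9 in UACC62P, at 24 to 68 reads a library.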
